A study of Mus musculus with 18 samples.

Results

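The comparison described here sets the medial against the dorsal cortex of newborn control mice, using the control libraries labelled Medial (3) and Dorsal (3), which are 6 of the 18 libraries of the study. Each medial library was paired with the dorsal library that carries the same title prefix and the same row index. The study sequenced RNA from the frontal cortex at postnatal day 0, in double mutants of RXRg and RARb (called dKO below) and in controls. Each genotype has 3 medial, 3 dorsal and 3 orbital libraries. Brains were frozen and later microdissected, and the dissection notes name medial frontal, motor and orbitofrontal tissue without saying whether the dorsal samples are the motor ones. The labels give the controls no allele, strain, sex or litter, do not say which part of either gene is altered in the dKO, and do not state that a pair comes from a single brain. The p-values therefore measure the spread between these libraries, which may be technical.

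The neocortex is built of layers of excitatory neurons born one after another, in which deep layer cells send axons out of the cortex and upper layer cells connect cortical areas with each other. Around birth, areas differ in the pace of maturation and in graded transcription factors, adhesion molecules and axon guidance cues laid down before sensory input arrives. Medial frontal cortex holds the prelimbic, infralimbic and anterior cingulate fields, which receive input from the mediodorsal thalamus.

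The 3 medial libraries held 93093398, 34832614 and 32211906 fragments counted in genes, and the 3 dorsal libraries held 70636819, 28957325 and 31757198 (pairs 1, 2 and 3 in that order here and below). Values are given as CPM, the fragments of a gene per 1e6 fragments counted in that library, without the TMM scaling factors that the fit uses. These factors ran between 0.933 and 0.996 in the 6 libraries and up to 1.088 in dKO. CPM levels are therefore only roughly comparable between libraries, and not between genes of different length. General neuronal and cortical excitatory markers, 13 in number, summed to 10430, 9442 and 8607 CPM in medial and 9658, 9051 and 8273 CPM in dorsal libraries. Their lowest value was 7.24 CPM, for Emx1 in the second medial library. The medial and dorsal library of a pair deviated together from their group means, with a Pearson r of 0.366, 0.574 and 0.708 over 11284 genes, and the row therefore entered the fit as a block. Every medial library carries one column index and every dorsal library another, so the region and this index cannot be told apart.

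Medial cortex had lower levels than dorsal cortex of Cux1, Cux2, Mdga1 and other genes of upper layer neurons, and higher levels of Crym, Neurod1, March1 and Cadm1 among others. Of 18730 genes tested, 92 passed an adjusted p of 0.05 (0.491%, edgeR quasi-likelihood test), 39 higher (0.208%) and 53 lower (0.283%) in medial than in dorsal cortex, and 1753 genes (9.36%) had an unadjusted p under 0.05. The absolute log2 difference of the 92 genes had a median of 1.02 and ran between 0.43 and 4.87, and 47 of them differed at least 2-fold, 21 higher and 26 lower. All 92 had the same sign in the 3 pairs, which was so for 29.2% of all genes tested, and the choice by p favours such genes. The 3 medial CPM values all lay above the 3 dorsal values for 34 of the 39 higher genes and all below them for 44 of the 53 lower genes, against 4.52% and 2.89% of all genes tested. The choice by p favours such separation too, here and for the single genes below. The number of calls depended on the row and on the libraries that estimate the spread: without the row as a block 1 gene passed, Cux1, with the 9 control libraries alone 8 passed, and with the 6 medial and dorsal libraries alone 0 passed, where 1076 genes had an unadjusted p under 0.05 (edgeR in each case). Leaving out 1 control library or row gave 6 to 49 calls, the lowest without the third dorsal library, and 4 genes passed in every such fit, Cux1, Cux2, Mdga1 and March1.

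**Figure D1:**
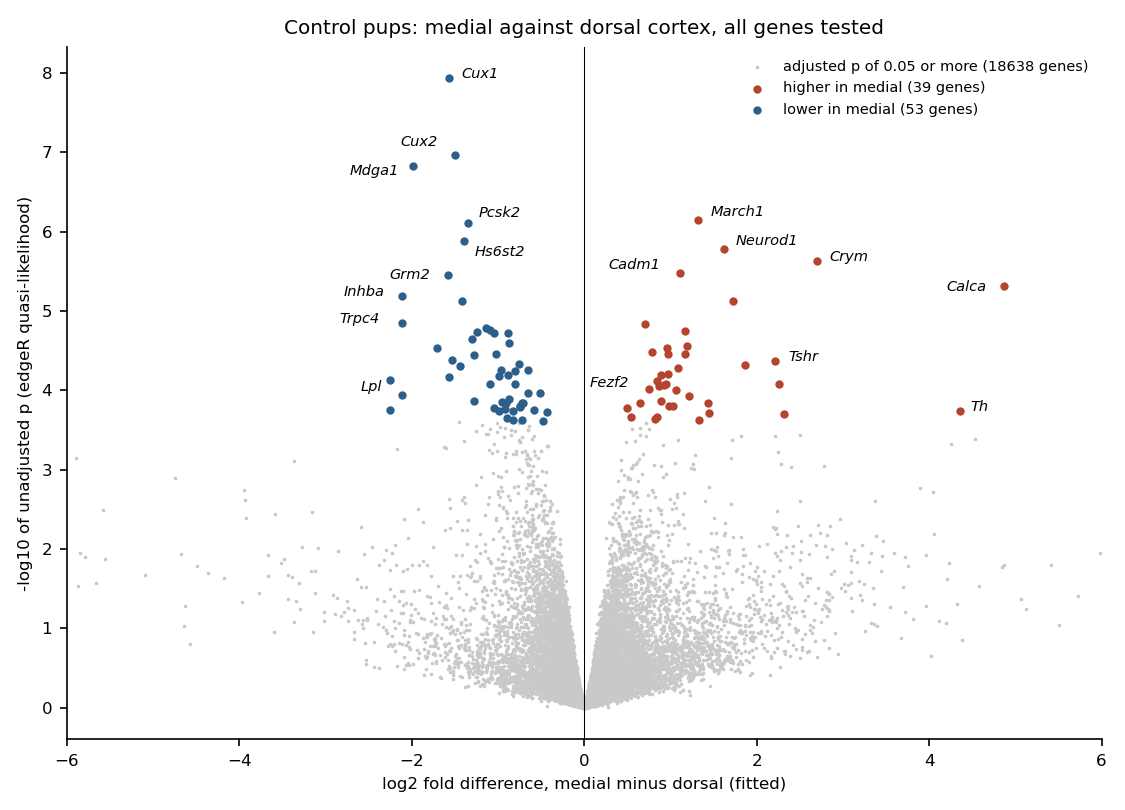
Fitted log2 difference (medial minus dorsal, x axis) against the -log10 of the unadjusted p (y axis) for the 18730 genes tested in control pups, with 8 genes beyond the plotted range of the x axis. The 39 genes higher in medial (red) and the 53 lower in medial cortex (blue) passed an adjusted p of 0.05, and Cux1, Cux2 and Mdga1 stand highest, on the lower side.

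The gene with the lowest p was Cux1, a homeodomain transcription factor of upper layer neurons on chromosome 5 (136248135 to 136567490, GRCm38, minus strand). It had 99.4, 139 and 98.3 CPM in medial and 265, 380 and 327 CPM in dorsal libraries. Every medial value lay below every dorsal value, and the log2 difference was -1.57 ± 0.13 (SE, adjusted p = 0.000219). Its paralog Cux2, on the same chromosome (121856366 to 122050102) and also a marker of upper layers, had 24.01, 40.9 and 13.2 CPM in medial and 54.8, 109 and 46.9 CPM in dorsal libraries. The second pair was the highest in both regions, the groups did not overlap, and the log2 difference was -1.50 ± 0.15 (adjusted p = 0.000931). The promoters of these 2 genes are shown because they are paralogs that differed together. They cover 250 bases before and 50 bases after the gene start in RefSeq, read 5′ to 3′ on the gene's own strand (GRCm38.p6, chr5:136565932-136566231 for Cux1 and chr5:122049802-122050101 for Cux2, both on the minus strand).
Cux1: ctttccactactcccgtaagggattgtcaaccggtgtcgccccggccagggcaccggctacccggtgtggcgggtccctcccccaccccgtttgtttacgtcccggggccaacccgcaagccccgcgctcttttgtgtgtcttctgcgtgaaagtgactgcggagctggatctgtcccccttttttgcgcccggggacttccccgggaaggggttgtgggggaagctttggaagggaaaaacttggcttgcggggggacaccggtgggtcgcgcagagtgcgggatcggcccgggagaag
Cux2: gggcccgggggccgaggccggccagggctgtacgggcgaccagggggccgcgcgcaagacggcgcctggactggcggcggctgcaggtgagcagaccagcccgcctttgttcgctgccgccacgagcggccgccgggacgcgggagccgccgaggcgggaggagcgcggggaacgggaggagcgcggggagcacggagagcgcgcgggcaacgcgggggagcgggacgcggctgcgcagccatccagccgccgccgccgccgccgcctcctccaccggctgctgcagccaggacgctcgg
In these and the later promoters 5 motifs were searched on both strands, with capitals marking a match. They were the retinoic acid receptor half-sites AGGTCA and AGTTCA, the E-box CAGATG that neuronal basic helix-loop-helix factors can bind, and the TATA box forms TATAAA and TATATA, whose matches can share bases. None of the 5 is in the Cux1 or the Cux2 window, which says only that these letters are not there.

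Mdga1, a membrane-anchored adhesion protein of migrating upper layer neurons that also binds neuroligins, had 10.2, 22.3 and 10.4 CPM in medial and 44.5, 69.8 and 45.6 CPM in dorsal libraries. The groups were far apart, with a log2 difference of -1.99 ± 0.20 (adjusted p = 0.000931). Inhba, which encodes the activin beta A subunit, had 5.62, 17.2 and 5.402 CPM in medial and 29.9, 54.8 and 25.9 CPM in dorsal libraries. Its highest medial value stayed below its lowest dorsal value, and the log2 difference was -2.11 ± 0.30 (adjusted p = 0.0101). Pcsk2, a protease that cuts neuropeptide precursors, had 33.1, 55.98 and 45.9 CPM in medial and 86.05, 128 and 118 CPM in dorsal libraries. Grm2, the metabotropic glutamate receptor 2, had 23.8, 47.3 and 25.6 CPM in medial and 113, 106 and 62.4 CPM in dorsal libraries. Both were lower in every medial library than in any dorsal library, by -1.34 ± 0.16 for Pcsk2 (adjusted p = 0.00294) and -1.58 ± 0.21 for Grm2 (adjusted p = 0.00656) on the log2 scale.

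Among the other lower genes, the heparan sulfate sulfotransferases Hs6st2 and Hs3st5 had log2 differences of -1.39 ± 0.17 and -1.14 ± 0.18. The cation channel gene Trpc4 had 8.51, 21.2 and 7.699 CPM in medial and 45.9, 48.3 and 53.5 CPM in dorsal libraries, with no overlap and a log2 difference of -2.12 ± 0.32 (adjusted p = 0.016). Cntn2, an adhesion protein of growing axons, had 121, 367 and 121 CPM in medial and 582, 707 and 429.8 CPM in dorsal libraries, so that the second medial library came closest to the dorsal group. Tgfbr1, a receptor for transforming growth factor beta, had a log2 difference of -1.24 ± 0.19, and Lpl, lipoprotein lipase, one of -2.11 ± 0.40 (adjusted p = 0.016 and 0.0367). Jakmip1, which encodes a protein that binds microtubules and GABA-B receptors, was lower by -1.09 ± 0.17, but 48.2% of its exon bases are shared with exons of other genes, and the counting ignored strand. This share was the highest among the 92 genes, of which 25 shared any exon base with another gene and 6 more than 10%.

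**Figure D2:**
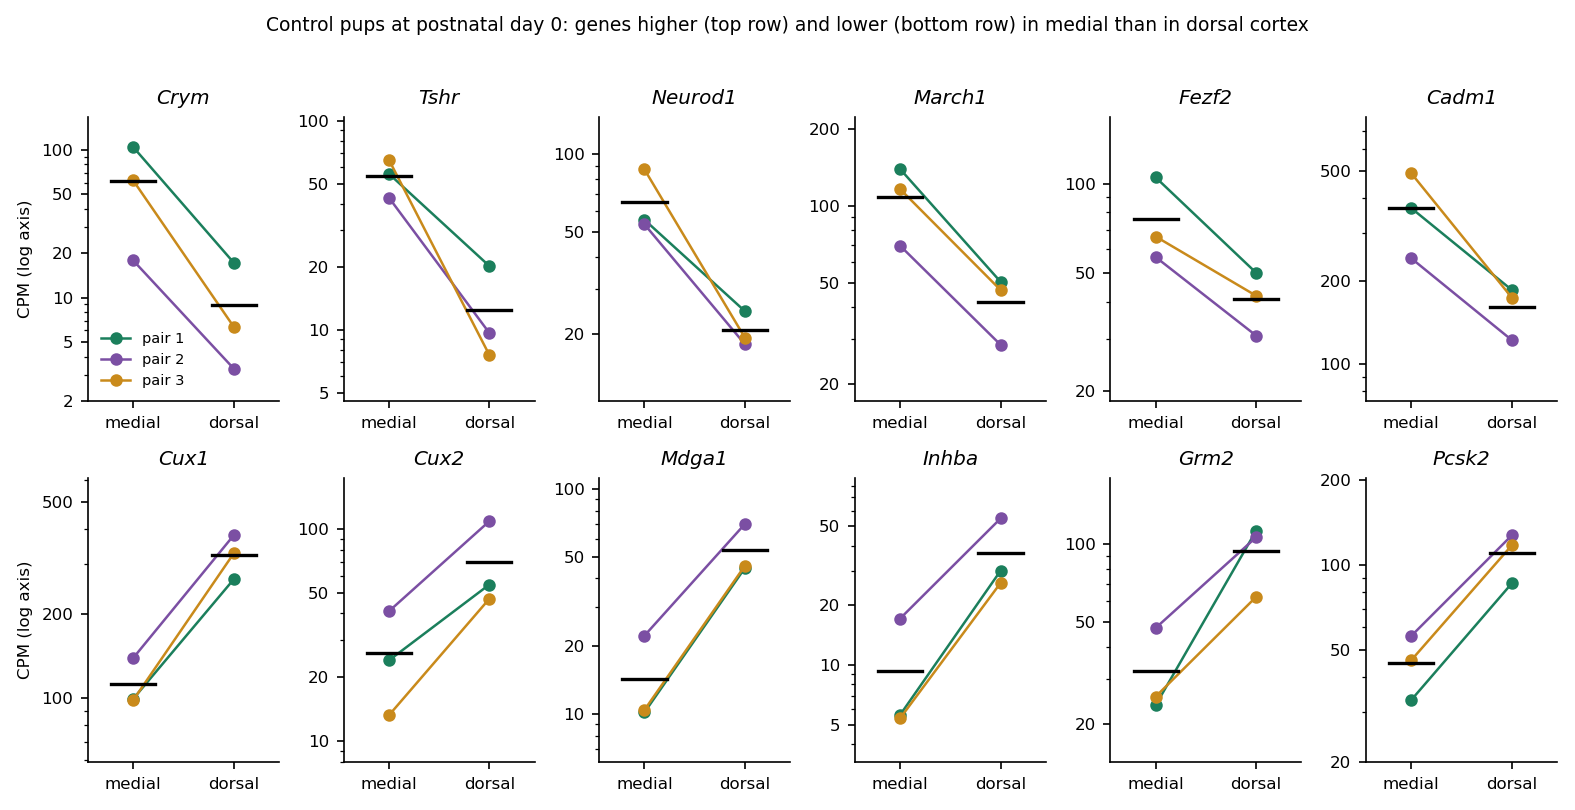
CPM on log axes of 12 genes in the 3 medial (left) and 3 dorsal libraries (right) of control pups, where lines join the 2 libraries of a pair and black bars give group means. Crym, Tshr, Neurod1, March1, Fezf2 and Cadm1 (top) were higher and Cux1, Cux2, Mdga1, Inhba, Grm2 and Pcsk2 (bottom) lower in the medial library of each pair, and the groups overlap in no panel, although for Crym the second medial library (17.9 CPM) lies close to the first dorsal library (17.3 CPM).

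Among the genes higher in medial cortex, Crym had one of the largest differences. It encodes mu-crystallin, a protein that binds thyroid hormone in the cytosol. It had 105, 17.9 and 62.1 CPM in medial and 17.3, 3.31 and 6.36 CPM in dorsal libraries, a log2 difference of 2.70 ± 0.35 (adjusted p = 0.00545). The libraries of the second pair were the lowest in both regions, and the groups just did not overlap. Tshr, the receptor for thyroid stimulating hormone, had 55.8, 42.95 and 65.2 CPM in medial and 20.2, 9.67 and 7.59 CPM in dorsal libraries. All medial values were above all dorsal values, with a log2 difference of 2.22 ± 0.38 (adjusted p = 0.0237). March1, a membrane-bound ubiquitin ligase, had 139, 69.8 and 116 CPM in medial and 50.4, 28.5 and 46.8 CPM in dorsal libraries, and its 3 pair differences lay close together at 1.47, 1.29 and 1.31 on the log2 scale (fitted 1.32 ± 0.16, adjusted p = 0.00294).

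Neurod1, a basic helix-loop-helix factor of differentiating neurons on chromosome 2 (79452521 to 79456751, minus strand), had 55.6, 53.4 and 87.2 CPM in medial and 24.5, 18.2 and 19.3 CPM in dorsal libraries. The third medial library was the highest, the groups did not overlap, and the log2 difference was 1.62 ± 0.20 (adjusted p = 0.00439), with 13.0% of its exon bases shared with other genes. Calca, the gene of calcitonin and the peptide CGRP on chromosome 7 (114631478 to 114636357, minus strand), was barely detected, with 2.395, 1.69 and 1.65 CPM in medial and 0.0425, 0.0345 and 0.157 CPM in dorsal libraries. Its fitted log2 difference of 4.87 ± 0.68 was the highest among the called genes (adjusted p = 0.00834), and it rests on few dorsal counts. The promoters of both are shown because each held a match to a searched motif, in the same window and orientation as above (chr2:79456587-79456886 for Neurod1 and chr7:114636308-114636607 for Calca, both on the minus strand).
Neurod1: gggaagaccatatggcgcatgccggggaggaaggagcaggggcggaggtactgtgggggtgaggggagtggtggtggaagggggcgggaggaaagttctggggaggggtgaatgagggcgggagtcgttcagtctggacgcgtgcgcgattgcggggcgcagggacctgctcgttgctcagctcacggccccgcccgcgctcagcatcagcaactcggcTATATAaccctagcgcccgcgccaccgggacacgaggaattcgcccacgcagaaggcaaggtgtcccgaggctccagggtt
Calca: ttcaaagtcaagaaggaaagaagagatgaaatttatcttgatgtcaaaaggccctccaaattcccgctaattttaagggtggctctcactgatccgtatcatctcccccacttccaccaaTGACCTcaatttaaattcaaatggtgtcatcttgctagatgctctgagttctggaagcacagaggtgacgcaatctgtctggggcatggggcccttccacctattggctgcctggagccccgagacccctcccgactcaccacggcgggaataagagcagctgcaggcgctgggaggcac
The capitals in Neurod1 are TATATA, which begins 31 bases before the start site, and those in Calca are AGGTCA on the opposite strand, which begins 130 bases before it. RefSeq promoters were matched for 25 of the 39 higher and 39 of the 53 lower genes. Of these, TATATA was in 8.0% and 7.69%, against 2.34% of the 12687 promoters of genes tested, and AGGTCA was in 4.0% and 10.3%, against 12.0%. For TATAAA the shares were 4.0%, 15.4% and 7.83%, and for CAGATG 16.0%, 10.3% and 12.3% in the same order, while AGTTCA was in 3 and 2 of the called promoters and in 1273 of all, all from counts of 6 promoters or fewer among the called genes.

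Cadm1, a synaptic adhesion protein of the immunoglobulin family, had 368, 242 and 492 CPM in medial and 186, 123 and 175 CPM in dorsal libraries (log2 difference 1.11 ± 0.15, adjusted p = 0.00656). Serpini1, the neuronal protease inhibitor neuroserpin, differed by less but with little scatter, at 238, 238 and 295 CPM in medial and 157, 138 and 167 CPM in dorsal libraries (0.70 ± 0.11, adjusted p = 0.016). Mgat4c, an enzyme that branches N-glycans, had nearly equal values within each region, 25.4, 24.1 and 26.8 CPM in medial and 12.7, 12.8 and 12.8 CPM in dorsal libraries (0.96 ± 0.16, adjusted p = 0.0204). Stxbp6, which encodes the SNARE-binding protein amisyn, and Hrk, which encodes a BH3-only protein that promotes cell death, had log2 differences of 1.17 ± 0.18 and 1.73 ± 0.25. Rasgrf1, an exchange factor for Ras that is expressed from the paternal allele in mouse brain, had 17.9, 7.32 and 39.6 CPM in medial and 5.196, 1.69 and 10.7 CPM in dorsal libraries. Its groups overlapped, while each medial library was above its own dorsal partner by a similar amount (pair differences of 1.78, 2.08 and 1.88). Nbl1, a secreted antagonist of bone morphogenetic proteins, and Stc1, stanniocalcin, had log2 differences of 0.98 ± 0.17 and 1.08 ± 0.19. Th, tyrosine hydroxylase, passed with a log2 difference of 4.36 ± 0.86 (adjusted p = 0.0426) from values near 0, 0.161, 1.18 and 1.55 CPM in medial and 0, 0.0691 and 0.063 CPM in dorsal libraries.

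By layer, the calls among upper layer genes were all on the lower side. Of 22 tested upper layer genes, 4 were lower in medial cortex (Cux1, Cux2, Inhba and Lhx2) and 0 higher. This is 18.2% lower, against 0.283% of all genes tested. Members and lists, here and below, were chosen with earlier results of these data known, which can raise such shares. Of the 22 genes, 17 had a negative sign, and the median log2 difference was -0.49, against 0.01 for all genes tested. Lhx2, a LIM homeodomain factor, had 42.9, 34.3 and 28.6 CPM in medial and 61.7, 76.98 and 65.2 CPM in dorsal libraries, with no overlap (-0.98 ± 0.19, adjusted p = 0.0426). Pou3f1, a POU domain factor, did not pass at -1.12 ± 0.24 (adjusted p = 0.0597), although its 75.6, 59.8 and 67.0 CPM in medial libraries lay below the 119, 135 and 173 CPM in dorsal libraries. The layer 4 factor Rorb had a value of -0.51 ± 0.25. Of the 5 members with a positive sign, Lmo4 (0.86 ± 0.24), Calb1 (0.86 ± 0.27) and Kitl (0.55 ± 0.20) had the highest values, and none passed (adjusted p = 0.194, 0.277 and 0.368).

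Deep layer genes gave a mixed picture. Of 17 layer 5 genes, 2 were higher (Crym and Fezf2, 11.8%) and 1 lower (Bcl6, 5.88%), with a median log2 difference of 0.23. Of 16 layer 6 genes 1 was higher (Crym, which stands on both lists, 6.25%), with a median of 0.16. Of all genes tested, 0.208% were higher and 0.283% lower. Fezf2, the zinc finger factor that directs neurons to project below the cortex, had 105, 56.5 and 66.3 CPM in medial and 50.02, 30.7 and 41.9 CPM in dorsal libraries, with each medial value above each dorsal value (0.84 ± 0.15, adjusted p = 0.0299). Bcl6, a transcriptional repressor that drives neuronal differentiation, had 20.1, 24.8 and 25.3 CPM in medial and 42.4, 76.7 and 48.9 CPM in dorsal libraries (-1.28 ± 0.21, adjusted p = 0.0211). Bcl11b, which marks corticospinal neurons, had overlapping values and a difference of -0.14 ± 0.20, and Tbr1, which marks layer 6, one of 0.29 ± 0.16. Rprm, another layer 6 gene, did not pass at 0.65 ± 0.14 (adjusted p = 0.0599), nor did Sox5 at -0.91 ± 0.22 (adjusted p = 0.103). Of 15 subplate genes 0 passed in the edgeR test, where 0.491% of all genes did. An unadjusted p under 0.05 was found for 6 of the 15, 4 with a positive and 2 with a negative sign, against 9.36% of all genes tested. In bulk tissue, fewer cells of a type and less RNA per cell cannot be told apart.

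**Figure D3:**
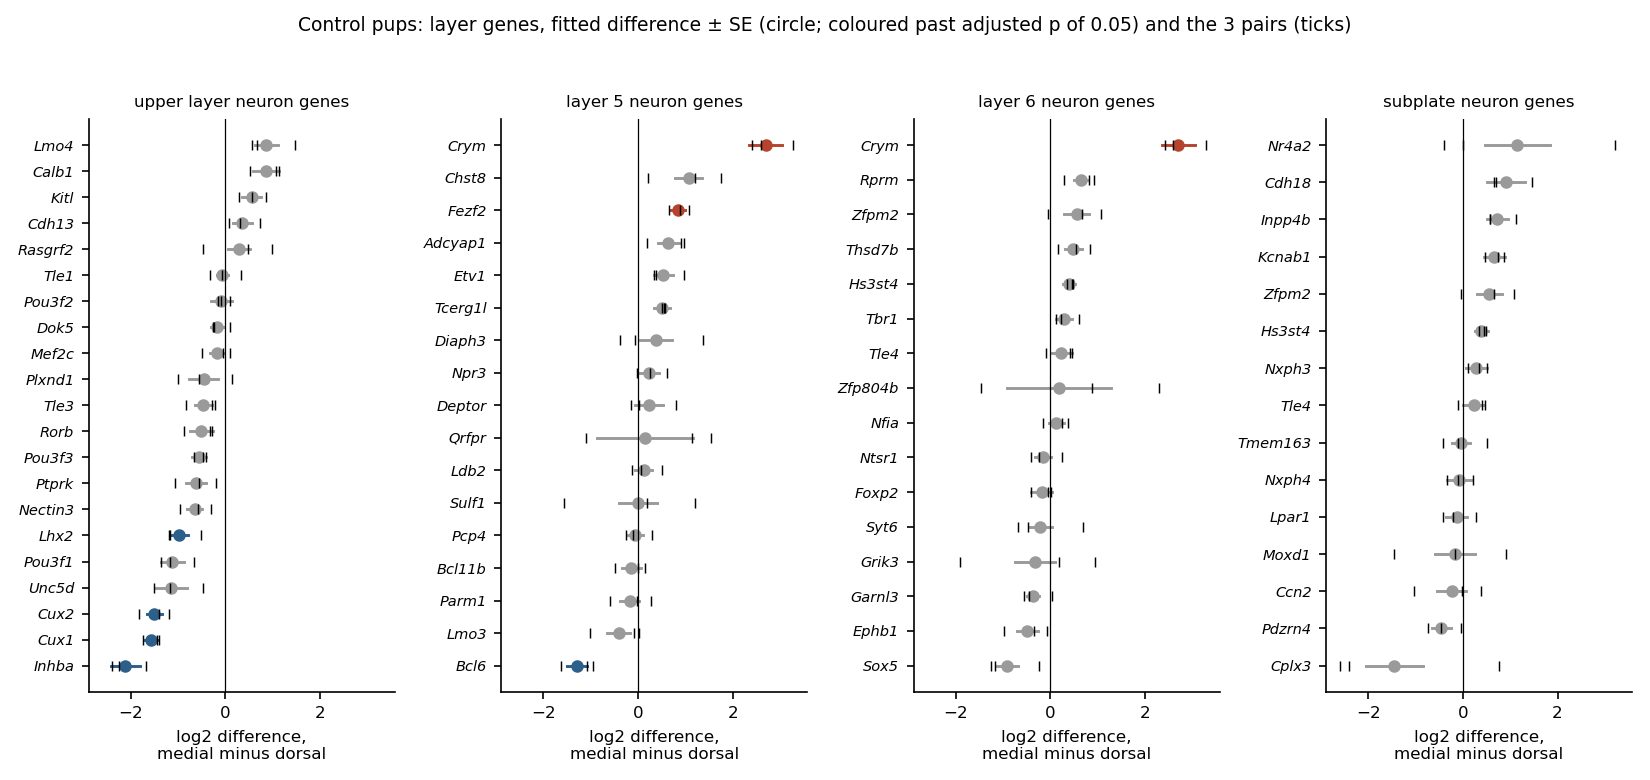
Fitted log2 difference (medial minus dorsal) with its SE for genes of 4 layer lists in control pups, ticks giving the 3 pairs and 1 upper layer gene not drawn. Inhba, Cux1, Cux2 and Lhx2 passed on the lower side (blue) among the 22 upper layer genes, while Crym and Fezf2 passed on the higher side (red) and Bcl6 on the lower side among the 17 layer 5 genes.

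Among 26 factors that pattern cortical areas, 1 passed, Lhx2, on the lower side (3.85%, against 0.283% of all genes tested). The list had 13 positive and 13 negative signs and a median log2 difference of -0.02. Meis2, a homeodomain factor, had 209.7, 174 and 219 CPM in medial and 146, 118 and 116 CPM in dorsal libraries without overlap, and just missed the threshold (0.63 ± 0.15, adjusted p = 0.0838). Dusp6, which is induced by and restrains FGF signalling, had 58.4, 96.3 and 52.3 CPM in medial and 129.9, 103 and 136 CPM in dorsal libraries (-0.92 ± 0.21, adjusted p = 0.081). Emx1 and Nr2f1, graded factors of the cortical primordium, had values of -0.58 ± 0.23 and -0.43 ± 0.21 and did not pass. Of 25 genes known from frontal, cingulate and limbic areas, 2 were higher (Crym and Nnat, 8%) and 1 lower (Cdh6, 4%). The shares of all genes tested were 0.208% and 0.283%. Nnat, neuronatin, which is expressed from the paternal allele, had 1287, 895 and 1537 CPM in medial and 546, 612 and 679 CPM in dorsal libraries (0.93 ± 0.17, adjusted p = 0.0302). Epha3, an ephrin receptor, did not pass at -1.01 ± 0.21 (adjusted p = 0.0507), nor did the zinc finger factor Tshz3 at 0.55 ± 0.14 (adjusted p = 0.153).

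Retinoic acid genes were given particular attention because the mutants of the study carry altered alleles of 2 of its receptors. Of 25 tested members, 1 passed, on the lower side (4%, against 0.283% of all genes tested). This was Dhrs3, which encodes an enzyme that returns retinaldehyde to retinol. It had 5.69, 13.7 and 13.8 CPM in medial and 20.9, 25.2 and 29.1 CPM in dorsal libraries, with no overlap and a log2 difference of -1.30 ± 0.21 (adjusted p = 0.0182). Its promoter, on the plus strand at chr4:144892577-144892876, is shown because Dhrs3 is the called member of this pathway, and it held none of the 5 motifs.
Dhrs3: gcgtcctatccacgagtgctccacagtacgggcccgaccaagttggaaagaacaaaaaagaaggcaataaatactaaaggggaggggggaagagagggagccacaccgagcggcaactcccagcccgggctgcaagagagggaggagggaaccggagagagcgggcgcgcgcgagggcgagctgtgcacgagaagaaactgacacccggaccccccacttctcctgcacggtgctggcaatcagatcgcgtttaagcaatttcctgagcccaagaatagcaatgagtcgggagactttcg
The retinol transporter Stra6 had 6.09, 27.3 and 44.1 CPM in medial and 38.4, 32.7 and 54.5 CPM in dorsal libraries and overlapped (-0.97 ± 0.36, adjusted p = 0.387). Aldh1a3, which makes retinoic acid, had 2.94, 0.258 and 2.05 CPM in medial and 0.0142, 0.898 and 0.346 CPM in dorsal libraries, higher in medial in pairs 1 and 3 and lower in pair 2 (adjusted p = 0.691). Nrip1, a nuclear receptor cofactor, had a value of 0.57 ± 0.21 (adjusted p = 0.359). Rarb had 3.502, 4.74 and 4.998 CPM in medial and 3.497, 5.53 and 5.29 CPM in dorsal libraries, levels that overlapped throughout. Rxrg had 2.05, 6.12 and 2.86 CPM in medial and 1.64, 30.5 and 3.37 CPM in dorsal libraries, so that the second dorsal library stood alone. In dKO, Rarb averaged 1.86 ± 0.965 CPM in medial and 2.54 ± 0.491 CPM in dorsal libraries, and Rxrg 1.07 ± 0.66 CPM in medial and 1.02 ± 0.32 CPM in dorsal libraries (SD, n = 3 each).

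Of 28 cadherins and protocadherins 3 were lower (10.7%, against 0.283% of all genes tested) and 0 higher, with a median log2 difference of -0.004 and 14 members of each sign. Cdh6, a type II cadherin, had 15.2, 33.4 and 16.02 CPM in medial and 43.5, 70.4 and 47.4 CPM in dorsal libraries (-1.41 ± 0.20, adjusted p = 0.0101). Cdh12 and Pcdh7 had log2 differences of -0.92 ± 0.18 and -0.89 ± 0.16 (adjusted p = 0.0426 and 0.0271), where 21.1% of the exon bases of Pcdh7 are shared with another gene. Pcdh17 and Pcdh18 were higher in every medial library than in any dorsal library and did not pass (0.89 ± 0.25 and 0.80 ± 0.21, adjusted p = 0.2 and 0.153). Efnb3, a membrane-bound ephrin, was the called member of 22 Eph receptors and ephrins (4.55%, against 0.208% of all genes tested higher). It had 137, 116 and 197 CPM in medial and 80.5, 86.1 and 108 CPM in dorsal libraries (0.65 ± 0.13, adjusted p = 0.0396). Of the 22 members, 16 had a negative and 6 a positive sign. Flrt2, a repulsive ligand of Unc5 receptors, was the called member of 38 synaptic organizers (2.63%, against the same 0.208%). It had 227, 225 and 187 CPM in medial and 143, 124 and 79.3 CPM in dorsal libraries (0.89 ± 0.16, adjusted p = 0.0271). The semaphorin receptor Plxnc1 had 40.9, 64.9 and 48.9 CPM in medial and 26.6, 24.97 and 18.9 CPM in dorsal libraries and did not pass (1.09 ± 0.24, adjusted p = 0.0633), nor did Ntn1, the guidance cue netrin, at -1.14 ± 0.24 (adjusted p = 0.0597), Robo2, a slit receptor, at -0.81 ± 0.21 (adjusted p = 0.141), or Wnt7b at -1.003 ± 0.26 (adjusted p = 0.151).

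For transmitter receptors and channels, 11 of 12 GABA-A receptor subunit genes had a positive sign, with a median log2 difference of 0.27. Of the 12, 1 passed, on the higher side (8.33%, against 0.208% of all genes tested). This was Gabrb1, the beta 1 subunit, with 21.6, 15.8 and 26.2 CPM in medial and 10.1, 7.63 and 8.41 CPM in dorsal libraries (1.22 ± 0.23, adjusted p = 0.0372). Gabra4, the alpha 4 subunit, had a value of 0.65 ± 0.20 and did not pass (adjusted p = 0.271). Of 22 glutamate receptor genes 1 was lower (4.55%, against 0.283% of all genes tested), Grm2, described above. The related Grm7 had a value of -0.51 ± 0.19 (adjusted p = 0.407). Of 35 potassium channel genes 1 was lower (2.86%, against the same 0.283%). This was Kcnh1, a voltage-gated channel, with 9.43, 16.8 and 11.2 CPM in medial and 17.9, 27.3 and 21.8 CPM in dorsal libraries (-0.89 ± 0.18, adjusted p = 0.048). Immediate early genes did not pass (0 of 16 in the edgeR test, against 0.491% of all genes), and 4 had an unadjusted p under 0.05, against 9.36% of all genes. Of the 16, 11 had negative signs. Among them were the transcription factors Egr2, with 0.0107, 2.24 and 0.435 CPM in medial and 5.17, 6.15 and 12.3 CPM in dorsal libraries (adjusted p = 0.149), and Egr1, at -1.02 ± 0.30 (adjusted p = 0.228).

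The summed levels of other cell types overlapped in range between the regions. Microglia and macrophage genes summed to 195 to 413 CPM over the medial and 237 to 270 CPM over the dorsal libraries. Endothelial and pericyte genes summed to 376 to 520 and 419 to 566 CPM, and radial glia and progenitor genes to 948 to 1665 and 1346 to 1475 CPM. The direction of these sums differed between pairs. The interneuron sum was lower in medial in each pair, at 1451, 1487 and 1626 CPM against 1500, 2057 and 1646 CPM. Of 29 interneuron genes, 19 had a negative and 10 a positive sign, and 9 were lower and 4 higher in all 3 pairs. None of these 4 lists had a called member among 20, 24, 19 and 29 tested (edgeR). Since 0.491% of all genes passed, lists this short would seldom hold a call. An unadjusted p under 0.05 (edgeR) was found for 9.36% of all genes tested. In the lists it was found for 1 higher and 1 lower microglia gene, 1 and 3 endothelial, 1 and 0 radial glia, and 2 and 6 interneuron genes. Of 14 choroid plexus and ependymal genes 6 stayed under 1 CPM in all 6 libraries. Ttr, the thyroid hormone carrier that choroid plexus makes in bulk, had 0, 1.75 and 0.31 CPM in medial and 0.0425, 0.967 and 0.378 CPM in dorsal libraries. Of 22 astrocyte genes 1 was higher (4.55%, against 0.208% of all genes tested). This was Sparcl1, a secreted matrix protein, with 398, 417 and 653 CPM in medial and 280, 224 and 309 CPM in dorsal libraries (0.79 ± 0.13, adjusted p = 0.0211). The median log2 difference of the astrocyte list was -0.15, and its sum ran between 1333 and 3244 CPM in medial and between 1674 and 2489 CPM in dorsal libraries. The meningeal list held Crym and Nnat, which cortical neurons also express, and without them its 25 members summed to 1054, 2693 and 4732 CPM in medial and 2125, 2555 and 2853 CPM in dorsal libraries, with 0 of the 25 called. The third medial library was the highest of the 6 in the meningeal, astrocyte and microglia sums and also for Nnat, Neurod1, Cadm1 and Sparcl1. Their part in these results was not tested. Cytosolic ribosomal protein genes, 33 in number, all had positive fitted signs with a median of 0.18 and 0 calls (0 with an unadjusted p under 0.05), and their sum was higher in medial in pair 1 only, 8652 against 4483 CPM.

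**Figure D4:**
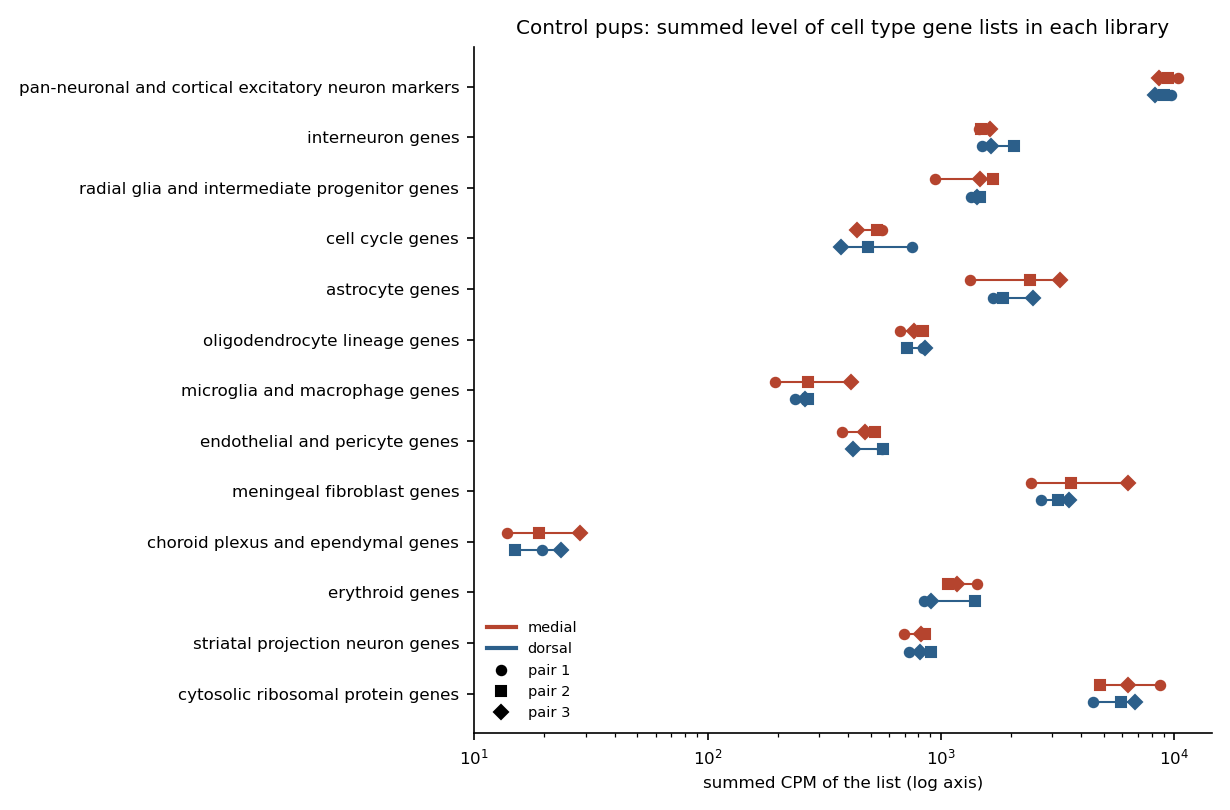
Summed CPM of 13 gene lists (log axis) in the 3 medial (red, upper of each row) and the 3 dorsal libraries (blue, lower) of control pups, with a symbol for each pair and a line over the range of the region. The ranges of the 2 regions overlap in every list shown, and the third medial library lies highest in the astrocyte, microglia and meningeal lists. Within each pair, the medial library was lower in the interneuron sum and higher in the neuronal marker sum.

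The orbital libraries of the same controls entered the same fit, and their mean places each gene relative to the pair of regions. For the 39 genes higher in medial cortex, the orbital mean CPM lay between the medial and the dorsal mean for 28, above both for 8 and below both for 3. For the 53 lower genes it lay between them for 31, below both for 21 and above both for 1. On the log2 scale the orbital mean was nearer to the medial than to the dorsal mean for 26 of the 39 and 43 of the 53. The genes were chosen for their gap between medial and dorsal values, which favours an orbital mean between them. The same shares over all genes tested were not computed. Lhx2 was among the genes below both, with 35.3 ± 7.19 CPM in medial and 67.95 ± 8.01 CPM in dorsal libraries, against an orbital mean of 19.1 ± 3.298 CPM (SD, n = 3 each).

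The same contrast in the dKO compares other libraries than the control contrast, but both come from the same fit and share its estimate of the spread of each gene. A gene with a low spread therefore passes more easily in both, and the column indexes of the regions are also the same. The dKO contrast gave 392 calls (2.09%), 163 higher (0.87%) and 229 lower (1.22%) in medial cortex. This count was 17 without the row as a block, 1086 with the 9 dKO libraries alone and 29 to 196 with a library or row left out, and the overlaps given next rest on the 392. Of the 92 genes called in controls, 91 had the same sign in dKO (98.9%), against 66.7% of the 18638 uncalled genes, and 56 also passed there in the same direction, which is 60.9% of the 92 and 14.3% of the 392. By direction these were 17 of the 39 higher and 39 of the 53 lower genes. The median log2 difference of the higher genes was 0.73 in dKO and 1.06 in controls, and that of the lower genes was -0.97 in dKO and -0.99 in controls. The genes were chosen by their control values, which favours larger differences in controls. Chosen instead by their dKO values, the higher genes had medians of 0.98 in dKO and 0.28 in controls, and the lower genes -0.95 and -0.51. Cux1 averaged 169 ± 19.02 CPM in medial and 380.2 ± 29.8 CPM in dorsal libraries of dKO (-1.23 ± 0.13, adjusted p = 0.000865). Crym averaged 72.5 ± 13.3 CPM in medial and 12.5 ± 3.68 CPM in dorsal libraries of dKO (2.47 ± 0.34, adjusted p = 0.00277), and Inhba 4.90 ± 1.88 CPM in medial and 35.5 ± 10.7 CPM in dorsal libraries (-2.94 ± 0.31, adjusted p = 0.000865, SD of 3 libraries and SE of the fit in each case).

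The difference of the contrast itself between dKO and control passed for 0 of 18730 genes in the edgeR test, where 969 genes (5.17%) had an unadjusted p under 0.05 and the lowest adjusted p was 0.161. By other tools, DESeq2 called 61 genes and limma-voom 0. Several lists differed by region in dKO without overlap of their sums, progenitor and cell cycle genes among them. The radial glia and progenitor genes summed to 3127, 2028 and 2071 CPM in medial and 1509, 1450 and 1317 CPM in dorsal libraries of dKO, without overlap, against 948 to 1665 CPM in medial and 1346 to 1475 CPM in dorsal libraries of controls. Of its 19 members 5 were higher and 0 lower in medial cortex of dKO, against 0.87% and 1.22% of all genes tested. The median log2 difference of the list was 0.82 in dKO and -0.14 in controls. The cell cycle genes summed to 1558, 863 and 1029 CPM in medial and 814, 728 and 647 CPM in dorsal libraries of dKO, against 437 to 561 CPM in medial and 374 to 752 CPM in dorsal libraries of controls. Of 30 members 6 were higher and 0 lower in dKO, against the same 0.87% and 1.22% of all genes tested. The median of the list was 0.70 in dKO and -0.08 in controls, and all genes tested had a median of 0.02 in dKO. General neuronal markers summed to 7527 to 8000 CPM in medial and 8605 to 8919 CPM in dorsal libraries of dKO. Astrocyte genes summed to 3579, 2797 and 2805 CPM in medial and 2252, 2016 and 2207 CPM in dorsal libraries of dKO. Ribosomal protein genes summed to 8995, 11850 and 8405 against 6141, 6835 and 6446 CPM. Upper layer genes were lower in medial, at 2696, 2765 and 2888 against 4045, 4579 and 3937 CPM. The interneuron sums overlapped. The part of these lists in the differences between genotypes given next was not tested. The lowest p belonged to Fam210b, a mitochondrial protein gene, whose medial minus dorsal log2 difference was 0.83 ± 0.16 in dKO and -0.75 ± 0.16 in controls. Fam210b averaged 423 ± 54.3 CPM in medial and 228 ± 20.4 CPM in dorsal libraries of dKO, against 110.2 ± 33.9 CPM in medial and 179 ± 38.2 CPM in dorsal libraries of controls. Scg2, a granin of secretory vesicles, had a log2 difference of -2.37 ± 0.26 in dKO and -0.51 ± 0.25 in controls. Necab1, a neuronal calcium-binding protein gene, had -1.21 ± 0.14 in dKO and -0.18 ± 0.14 in controls, and Kcnj10, an inward rectifier channel of glia, had 0.59 ± 0.22 in dKO and -1.07 ± 0.24 in controls. Of the 92 genes, 20 had an unadjusted p under 0.05 in this test (21.7%), a share that the choice by control values also raises. Lhx2, which cortical progenitors also express, averaged 80.3 ± 16.4 CPM in medial and 74.7 ± 17.2 CPM in dorsal libraries of dKO, and was the 1 gene whose sign turned (0.06 ± 0.19 in dKO and -0.98 ± 0.19 in controls, unadjusted p of the difference 0.00185). Kcnh1 had a difference of -2.01 ± 0.19 in dKO and -0.89 ± 0.18 in controls, Calca one of 0.87 ± 0.56 in dKO and 4.87 ± 0.68 in controls, and Dhrs3 one of -0.42 ± 0.20 in dKO and -1.30 ± 0.21 in controls, and the difference between genotypes passed for none of these genes after adjustment.

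**Figure D5:**
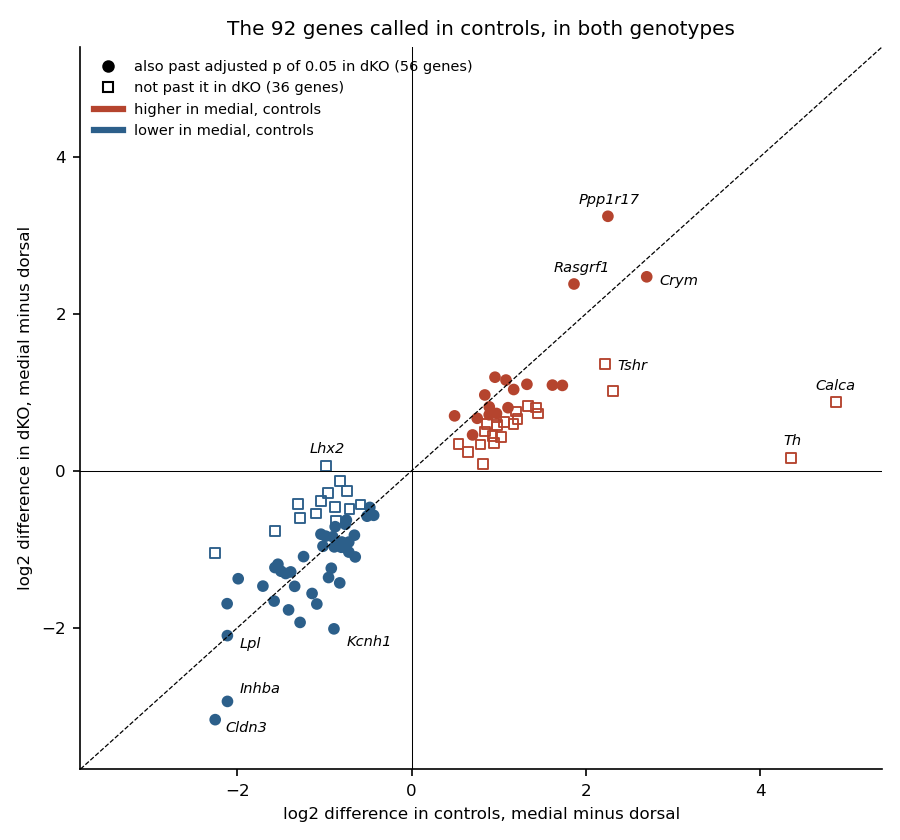
Log2 difference (medial minus dorsal) of the 92 genes called in controls, in dKO (y axis) and in controls (x axis), where the dashed line marks equal values. Filled circles (56) also passed an adjusted p of 0.05 in dKO, open squares (36) did not, and Lhx2 is the 1 gene on the other side of 0, while Calca and Th lie far below the line.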

How the data were processed

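RNA was amplified from low input with SMART-seq v4 and made into Nextera XT libraries, per the labels' protocols. Reads were aligned with STAR 2.6 and counted with featureCounts 1.6.2, per the submitters' processing notes. The deposited values are raw fragment counts per gene, and the authors' counting ignored strand, per the file headers. The table holds 54532 genes, of which 54409 have a symbol, and 6 columns that match no sample were not used. Groups were taken from the labelled brain region and genotype, and genome and gene models were GRCm38 and Ensembl 94, per the file headers. Counts were tested with edgeR 4.0.16 (quasi-likelihood, TMM factors, R 4.3.3) in 1 fit over the 18 libraries, with the title prefix and index row as a block and genes kept by a minimum count of 10, and p-values were adjusted by Benjamini and Hochberg over 18730 genes. The row pairs libraries because same-row deviations correlated above 0.1 in every pair (r of 0.366, 0.574 and 0.708). The steps were tested on counts simulated from the fit itself, with its row effects and spread. Of 100 genes changed 2-fold 80 were recovered, and of 100 changed 4-fold 100. The changed genes were drawn from a middle range of mean CPM, so recovery of low genes such as Calca and Th was not tested. Among 18319 genes tested there, 7 unchanged ones passed. Because the simulation takes the row effects and the spread from the fit, it cannot check the choice of the row as a block or the shared spread. Alternatives used DESeq2 1.42.0 and limma 3.58.1, other size factors and filters, other sets of libraries, and each library or row left out. Named genes were the 15 called genes of lowest p in each direction that had a mean of at least 1 CPM over the 6 libraries, the same sign in the 3 pairs and no predicted-gene or Rik symbol, and up to 4 called or 2 uncalled members of each list. Others, Calca among them, fell outside this rule and were chosen after their values were seen, and some genes chosen by the rule are not reported here. The members and lists were chosen with earlier results of these data known. Total counts ranged between 28957325 and 93093398 in the 6 libraries, and no interval is given that covers more than the spread of these libraries.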

Additional observations from a re-analysis of the deposited data

How the results depend on the processing

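The number of calls in controls, 92, was 89 with RLE size factors, 92 with upper quartile scaling and 102 with a mean of at least 1 CPM. It was 356 without a filter on low counts, 356 with DESeq2, 145 with limma-voom, 11 at an adjusted p of 0.01 and 47 with at least a 2-fold difference. Without the row as a replicate block 1 gene passed, also 1 with the title prefix as a term, 8 with the 9 control libraries and 0 with the 6 medial and dorsal libraries. Leaving out a library or row gave 6 to 49 calls. The 92 genes kept their sign in each of up to 19 alternatives, which the choice by p and the same sign in the 3 pairs favour. Under all size factors, filters and tools run, 81 passed, but these settings all keep the row as a block and the 18 libraries. The count in dKO, 392, was 1169 without a filter, 1299 with DESeq2, 89 at an adjusted p of 0.01, 182 with at least a 2-fold difference, 1086 with the 9 dKO libraries, 17 without the replicate block, 65 with the title prefix in its place, and 29 to 196 with a library or row left out. The difference between dKO and control, with 0 calls, gave 72 without a filter, 61 with DESeq2, and 0 to 1 with a library or row left out, the 1 call arising without the first control medial library and without the first control row. Signs turned for Bcl11b without the first medial library (0.045) or the first row (0.048), for Aldh1a3 without the first row (-0.043), and for Rarb without the second medial (0.007) or the third dorsal library (0.031). With 1 library or row left out, these values ran between -0.293 and 0.048 for Bcl11b, between -0.043 and 4.819 for Aldh1a3 and between -0.292 and 0.031 for Rarb. The cause was not tested. Of 39 uncalled named genes, 25 passed the test in at least 1 alternative. All-gene medians under the 3 scalings were 0.0103, 0.0079 and 0.0322 on the log2 scale. With 3 libraries a group, the fit borrows its spread from all 18 libraries, and low genes such as Calca and Th rest on few dorsal counts.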
